A study of Mus musculus with 7 samples.

Results

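Fibroblasts of the young mammary gland were divided by 3 transcripts, Pi16, Dpp4 and Col15a1. Among the 1799 cells of young mice that the authors named fibroblasts, the 1065 with at least 1 UMI (unique molecular identifier, a tag that marks each captured mRNA molecule) of Pi16 or Dpp4 and 0 of Col15a1 are called Pi16 Dpp4 fibroblasts, and the 368 with at least 1 UMI of Col15a1 and 0 of Pi16 and Dpp4 are called Col15a1 fibroblasts. A further 184 cells had UMIs of both kinds and 182 had none of the 3. The 1433 cells of the 2 groups were drawn from 13684 cells of 7 mice, and the groups were compared within each of the 3 young mice (Young A, B and C). These were virgin females aged 3 to 4 months, in diestrus, of a mixed FVB, 129 and C57BL/6J background, and 4 aged females (Aged A to D, 13 to 14 months) of the same kind served as mice that the rule had not used. The abdominal glands, without their lymph nodes, were dissociated with enzymes and captured without sorting, as 1 library of 3′ single-cell RNA sequencing per mouse.

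In many mouse tissues Pi16 and Dpp4 mark fibroblasts of the adventitia around vessels and in fascia, which are regarded as a reservoir for other fibroblasts, whereas Col15a1 marks fibroblasts inside the parenchyma that make basement membrane components. Pi16 encodes a peptidase inhibitor anchored at the cell surface, Dpp4 (CD26) a peptidase that trims dipeptides from chemokines and hormones, and Col15a1 a collagen of basement membrane zones. In the mammary gland, fibroblasts embed the ducts and the fat pad and supply matrix and growth factors to the epithelium.

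The cells were chosen by their UMIs of Pi16, Dpp4 and Col15a1, and these 3 genes are described here and were not tested. Pi16 (chromosome 17, 29317680 to 29330593, GRCm38) held 4167, 4420 and 5613 CPM (UMIs of the gene per 1000000 UMIs, summed over the cells of a group in a mouse) in the Pi16 Dpp4 fibroblasts of Young A, B and C. Dpp4 (chromosome 2, 62330073 to 62412231) held 191, 239 and 213 CPM there, and Col15a1 (chromosome 4, 47208161 to 47313167) held 451, 406 and 527 CPM in the Col15a1 fibroblasts of the same mice. The first group was thus set mostly by Pi16, whose level far exceeded what 1 UMI gives. The median Pi16 Dpp4 fibroblast had 17, 19 and 25 UMIs of the 2 genes together, while the median Col15a1 fibroblast had 2 UMIs of Col15a1 in every young mouse. A single UMI of Col15a1 was the basis for 40.3%, 45.5% and 30.7% of the Col15a1 fibroblasts, against 4.44%, 6.92% and 3.74% of the Pi16 Dpp4 fibroblasts that rested on 1 UMI of Pi16 or Dpp4.

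Free RNA in the droplets places UMIs in cells that do not express a gene, so the shares of cells with a UMI were set beside other cell types. Pi16 was detected in 67.4% of 1799 young fibroblasts (median 4411 UMIs per cell) and in 10.6% of 1571 hormone-sensing luminal cells (median 6888 UMIs per cell), an epithelial type taken as background. Dpp4 was detected in 37.8% and 0.509% of the same cells, and Col15a1 in 30.7% and 1.72%. The background depends on the type taken. Higher shares were found for Pi16 in macrophages of the study's Ma class (14.0%), Dpp4 in dendritic cells (9.76%) and Col15a1 in myoepithelial cells (4.27%). Lower shares were found in vascular endothelial cells for Pi16 (5.90%) and Dpp4 (0.107%). Col15a1 was not particular to fibroblasts by this measure, since 32.9% of 231 pericytes and 20.7% of 932 vascular endothelial cells had a UMI of it. After every cell was thinned to 2000 UMIs, the shares in fibroblasts were 62.8%, 20.5% and 20.2% for Pi16, Dpp4 and Col15a1. In hormone-sensing luminal cells they were then 3.37%, 0.382% and 0.573%. The thinned share of Col15a1 was 14.7% in pericytes and 8.69% in vascular endothelial cells, both below that in fibroblasts.

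Detection of the 2 kinds of gene in the same fibroblast fell short of the product of their shares in young mice. In Young A 73 cells held both where the product of the shares was 143, a ratio of 0.510. The ratio was 0.384 in Young B and 0.482 in Young C, and 0.365, 0.372 and 0.268 at 2000 UMIs per cell. Pi16 and Dpp4 were found together more often than the product of their shares, at ratios of 1.53, 1.30 and 1.36. In aged mice the ratio of Pi16 or Dpp4 with Col15a1 was 0.832 in Aged A (121 fibroblasts), 1.07 in Aged B (41 fibroblasts), 0.469 in Aged C (15 fibroblasts) and 0.386 in Aged D (17 fibroblasts), of which the last 2 rest on 1 cell with both in each mouse.

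Pi16 Dpp4 fibroblasts made up 50.4%, 70.7% and 62.1% of the fibroblasts of Young A, B and C, and Col15a1 fibroblasts 26.5%, 11.96% and 18.6%. Pi16 Dpp4 fibroblasts were the larger group in each young mouse. In aged mice the share of Pi16 Dpp4 fibroblasts was 47.1%, 22.0%, 46.7% and 58.8%, a mean of 43.6% ± 15.5 (SD, n = 4) against 61.1% ± 10.2 (SD, n = 3) in young mice. The ranges overlapped and the difference of 17.4 percentage points did not pass (exact two-sided permutation test, p = 0.143, where 3 mice against 4 cannot go below 0.0286). With every cell thinned to 2000 UMIs the shares were 60.9% and 37.8%, and the exact permutation test gave p = 0.0286. Col15a1 fibroblasts made up 19.0% ± 7.28 of fibroblasts in young and 18.4% ± 5.34 in aged mice (exact permutation test, p = 0.8286), and the sign of this difference turned without Young A or without Aged A. Whether young and aged libraries were handled in separate batches is not stated, so age and batch cannot be told apart here. With 15 to 121 fibroblasts per aged mouse the intervals were wide, and the 95% Wilson interval of the share of Pi16 Dpp4 fibroblasts ran from 24.8% to 69.9% in Aged C.

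**Figure D1:**
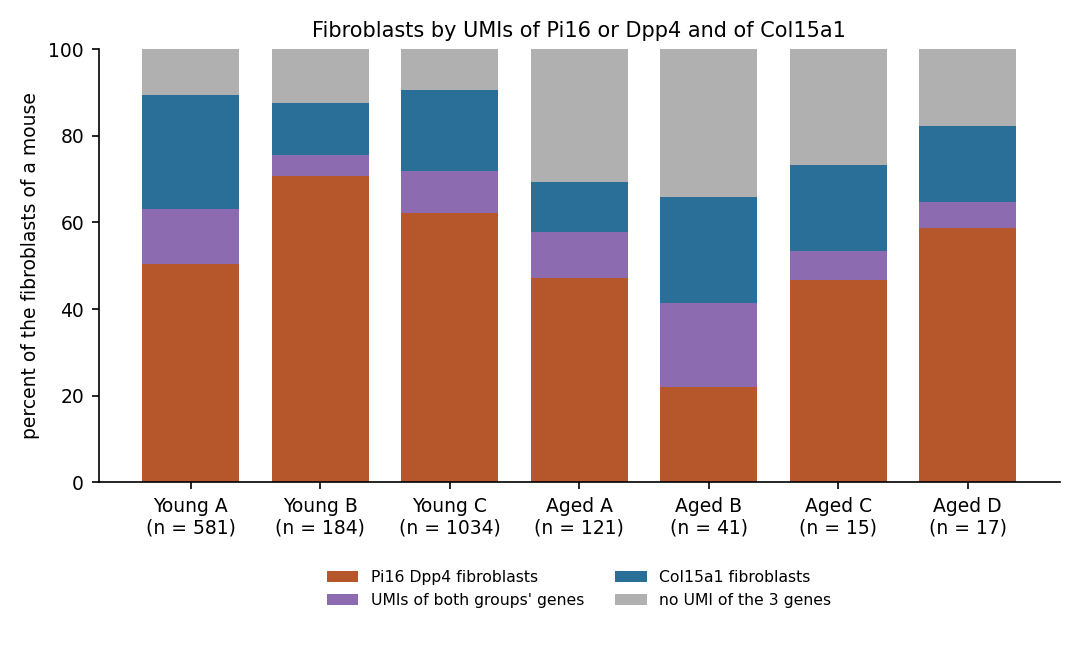
Share of the fibroblasts of each mouse (y axis, percent; n is the number of fibroblasts) in 4 classes set by UMIs of Pi16 or Dpp4 and of Col15a1. Pi16 Dpp4 fibroblasts make up 50.4% to 70.7% in the 3 young mice and 22.0% to 58.8% in the 4 aged mice.

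The libraries held 6652599 to 16999625 UMIs. Of 73 cells called doublets, 7 were young fibroblasts, and 101 barcodes occurred in more than 1 library, of which 0 were shared by fibroblasts of different young mice. Depth was close in Young A and Young C and lower in the Col15a1 fibroblasts of Young B, with medians of 4301, 4506.5 and 4455 UMIs per cell in the Pi16 Dpp4 fibroblasts of Young A, B and C and 4229.5, 3734 and 4548 in the Col15a1 fibroblasts. The Col15a1 group of Young B was the smallest, with 22 cells and 91147 UMIs in sum, against 130 to 642 cells and 628710 to 3029227 UMIs for the Pi16 Dpp4 groups. Transcripts of the 13 mitochondrially encoded genes took up 1.72%, 1.86% and 1.86% of all UMIs in the Pi16 Dpp4 fibroblasts and 3.14%, 2.58% and 3.33% in the Col15a1 fibroblasts. Transcripts of 82 ribosomal protein genes ran the other way, at 23.2%, 24.0% and 23.6% against 17.6%, 19.2% and 17.4%. Both measures separated the groups in every young mouse, and their part in the differences below was not tested. In Aged A the mitochondrial shares were 2.01% and 2.11%, and in Aged B 2.08% and 2.29%.

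**Figure D2:**
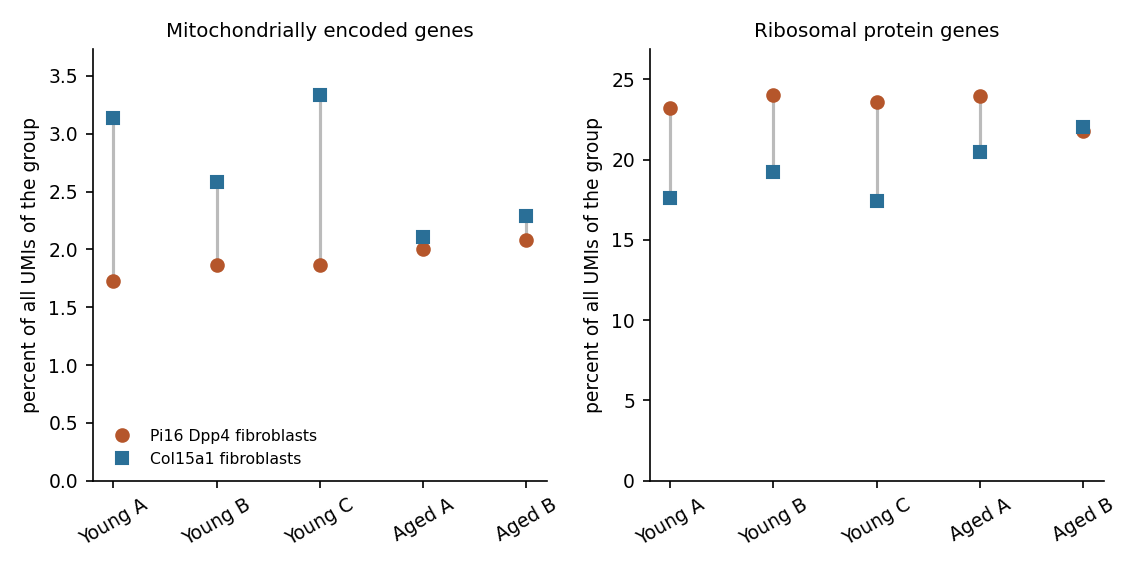
Percent of all UMIs of a group (y axes, starting at 0) from mitochondrially encoded genes (left) and ribosomal protein genes (right), for Pi16 Dpp4 fibroblasts (circles) and Col15a1 fibroblasts (squares) of each mouse with at least 5 cells in both groups. The 2 groups stand apart in the 3 young mice, with 1.72% to 1.86% mitochondrial UMIs against 2.58% to 3.33%.

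Beyond the 3 genes of the rule, the 2 groups differed in a broad set of transcripts. Most tested genes of adventitial progenitor fibroblasts and 8 of 16 elastic fibre genes were higher in Pi16 Dpp4 fibroblasts. Of 17 basement membrane genes 10 were higher in Col15a1 fibroblasts, as were 12 of 21 collagen genes and 14 of 20 preadipocyte and lipid genes. These lists were drawn up with earlier results of the same data known. Counts were summed per mouse and group and fitted with edgeR's quasi-likelihood test with the mouse as a block. Calls required a difference of at least 1.5-fold together with an adjusted p (Benjamini-Hochberg) under 0.05. Of 6223 genes that passed the filter on low counts, 633 (10.2%) were called higher in Pi16 Dpp4 and 579 (9.3%) higher in Col15a1 fibroblasts. Log2 fold changes below are Pi16 Dpp4 over Col15a1 with their standard error (SE), and had a median of 0.02 over all genes tested. The CPM of the 2 groups did not overlap for 1018 genes (16.4%) higher in Pi16 Dpp4 and 822 (13.2%) higher in Col15a1 fibroblasts, 29.6% of the genes tested in all. Without Young C, which had the most cells, 438 and 353 genes were called, and without Young B 676 and 733.

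Krtdap, which encodes a small secreted protein of differentiating keratinocytes, held 105, 89.1 and 132 CPM in the Pi16 Dpp4 fibroblasts of Young A, B and C and 0 in the Col15a1 fibroblasts of all 3. With 597 UMIs against 0 it was at least 69.5-fold higher, counting 3 UMIs over the Col15a1 group as the floor (adjusted p = 1.31e-08). Sbsn (suprabasin) and Dmkn (dermokine), also secreted in the epidermis, lie next to it on chromosome 7, from 30751471 to 30756134 and from 30763756 to 30781063, with Krtdap from 30787896 to 30791097. Sbsn held 384, 266 and 473 CPM against 14.0, 0 and 17.0 (log2 fold change 4.85, SE 0.26, adjusted p = 5.33e-10). Dmkn held 142, 103 and 152 CPM against 4.21, 0 and 2.13 (log2 fold change 5.61, SE 0.36, adjusted p = 3.05e-09). The 3 neighbours were high in every Pi16 Dpp4 group and at or near 0 in every Col15a1 group, which their choice by fold change favours.

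Several other leading genes of the Pi16 Dpp4 fibroblasts encode enzymes. Akr1c18, an aldo-keto reductase that inactivates progesterone, held 545, 352 and 443 CPM against 4.21, 0 and 3.19 (log2 fold change 7.10, SE 0.31, adjusted p = 4.71e-11). Smpd3, a neutral sphingomyelinase, held 725, 1097 and 814 CPM against 5.62, 32.9 and 7.45 (log2 fold change 6.57, SE 0.28, adjusted p = 4.29e-11). Aldh1a3, which oxidizes retinaldehyde to retinoic acid, held 105, 100.2 and 165 CPM against 4.21, 0 and 6.39 (log2 fold change 4.71, SE 0.33, adjusted p = 8.05e-09). Each of the 3 was higher in all Pi16 Dpp4 groups than in any Col15a1 group, which their choice by fold change favours. Uchl1, a deubiquitinating enzyme, had 327 UMIs against 0 and was at least 38.1-fold higher by the same floor (adjusted p = 1.69e-07). The secreted factors among the leading genes were Myoc (myocilin, 351, 464 and 494 CPM against 1.40, 0 and 5.32) and Sema3c, a secreted semaphorin (257, 371 and 345 CPM against 7.02, 0 and 14.9). Their log2 fold changes were 6.96 (SE 0.33) and 4.87 (SE 0.29), with adjusted p of 9.72e-11 and 1.06e-09. Car8, Duoxa1 and Limch1 completed the 12 with the largest fitted values, at log2 fold changes of 5.42, 4.72 and 5.24. The 12 were drawn from called genes that averaged at least 50 CPM and went the same way in all 3 mice. Limch1 rested on 2 UMIs in the Col15a1 group, and its ratio of pooled CPM was 45.2 (95% counting interval 12.4 to 375). Without Young A, 0 UMIs of Limch1 remained in the Col15a1 group and its fitted log2 fold change was 9.10. Of the 12, Aldh1a3 averaged 123 CPM in Pi16 Dpp4 fibroblasts and 177 in alveolar luminal cells. Limch1 averaged 50.6 CPM in Pi16 Dpp4 fibroblasts, 61.5 in pericytes and 55.4 in vascular endothelial cells.

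**Figure D3:**
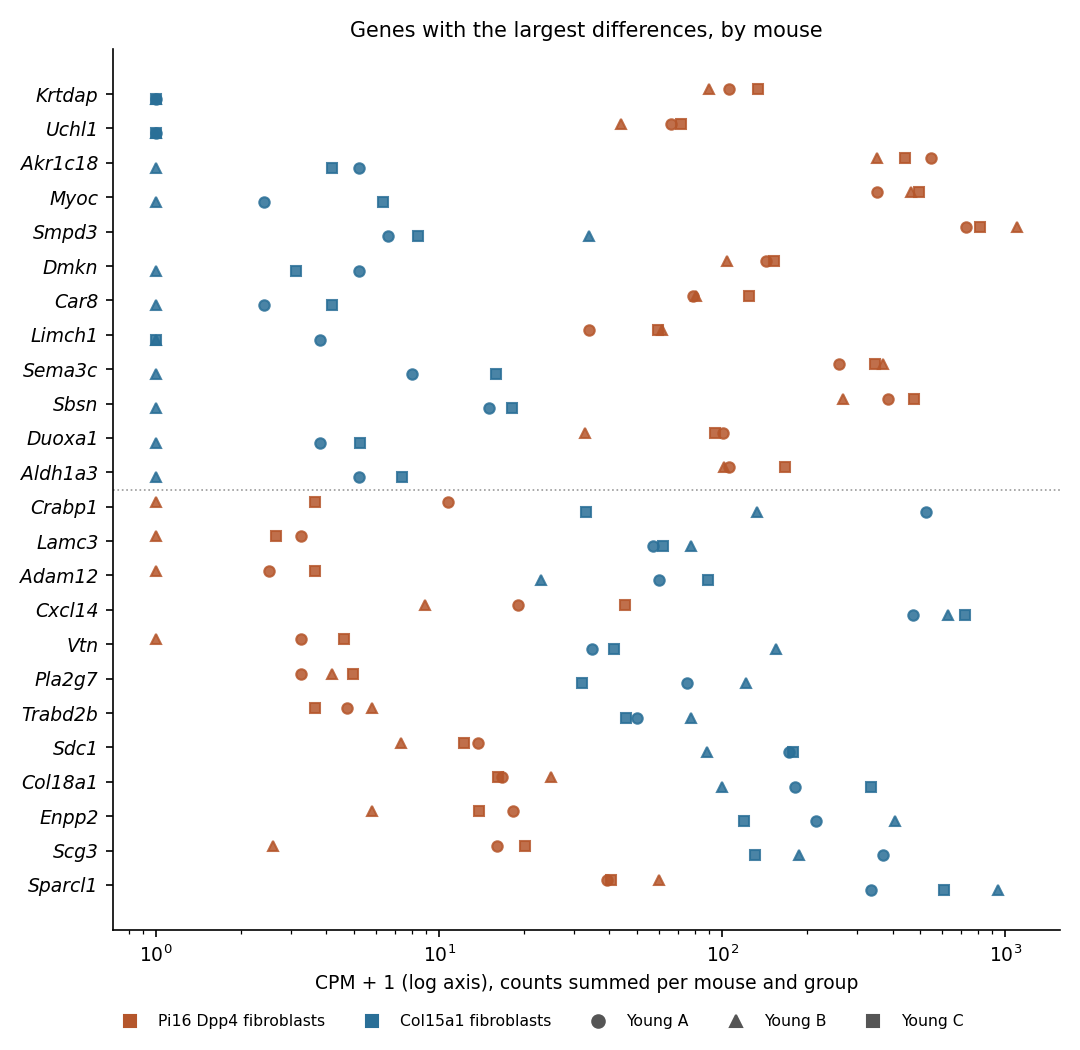
CPM + 1 (x axis, log scale) of the 12 called genes of each direction with the largest fitted log2 fold change and at least 50 CPM in the higher group (y axis), for Pi16 Dpp4 (orange) and Col15a1 fibroblasts (blue) of Young A (circles), Young B (triangles) and Young C (squares). The points of the 2 groups do not overlap for any of the 24 genes, which the choice by fold change favours. Points at 1 are groups with 0 UMIs.

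The leading genes of Col15a1 fibroblasts were likewise called genes that averaged at least 50 CPM there and went the same way in all 3 mice. Among them Crabp1, a carrier of retinoic acid in the cytoplasm, had the largest log2 fold change (-5.22, SE 0.37, adjusted p = 9.74e-09). It was also uneven, with 522, 132 and 31.9 CPM in the Col15a1 fibroblasts of Young A, B and C against 9.74, 0 and 2.64 in the Pi16 Dpp4 fibroblasts. Within each mouse the Col15a1 group was the higher, and Young C fell well below Young A. Lamc3, a laminin chain of basement membranes, held 56.2, 76.8 and 60.7 CPM against 2.25, 0 and 1.65 (log2 fold change -5.15, SE 0.41, adjusted p = 3.61e-08). Adam12, a membrane metalloprotease, held 59.0, 21.9 and 88.3 CPM against 1.50, 0 and 2.64 (log2 fold change -5.11, SE 0.35, adjusted p = 6.11e-09). Cxcl14, a chemokine, held 470.3, 625 and 718 CPM against 17.98, 7.95 and 44.2 (log2 fold change -4.54, SE 0.25, adjusted p = 5.70e-10). None of these genes overlapped between the groups, which their choice by fold change favours.

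A further 4 leading genes code for matrix or surface proteins. Vtn (vitronectin, an adhesive glycoprotein) had a log2 fold change of -4.15 (SE 0.47), Sdc1 (syndecan-1, a heparan sulfate proteoglycan of the cell surface) of -3.86 (SE 0.23), Col18a1 (a basement membrane collagen) of -3.80 (SE 0.30) and Sparcl1 (a secreted matricellular protein) of -3.69 (SE 0.21). Enpp2, the secreted enzyme autotaxin that makes lysophosphatidic acid, held 213, 406 and 118 CPM against 17.2, 4.77 and 12.9 (log2 fold change -3.79, SE 0.30, adjusted p = 3.61e-08). Pla2g7, Trabd2b and Scg3 completed the 12 largest, at -3.94, -3.90 and -3.76. Several of these were also abundant elsewhere: Sparcl1 averaged 629 CPM in Col15a1 fibroblasts, 701 in vascular endothelial cells and 886 in pericytes, and Vtn averaged 75.9 CPM in Col15a1 fibroblasts and 97.7 in pericytes. Cxcl14 averaged 605 CPM in Col15a1 fibroblasts and 2986 in myoepithelial cells. Of the 579 genes higher in Col15a1 fibroblasts, 220 (38.0%) were at a higher level in pericytes than in Col15a1 fibroblasts, against 52.2% of all genes tested. Genes chosen as high in a group are expected to fall below that share. Of the 633 genes chosen likewise for Pi16 Dpp4 fibroblasts, 87 (13.7%) were at a higher level in pericytes, against 49.3% of all genes tested. For vascular endothelial cells the shares were 32.5% of the 579 and 13.3% of the 633 genes.

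The promoters of Krtdap, which had 0 UMIs in the Col15a1 group, and of Crabp1 are given here as examples of each direction, with capitals marking letters of the motifs named after them. The windows run from 250 bases before to 50 bases after the transcription start (RefSeq, GRCm38.p6, both on the plus strand, chr7:30787655-30787954 and chr9:54764498-54764797), 5′ to 3′.
Krtdap: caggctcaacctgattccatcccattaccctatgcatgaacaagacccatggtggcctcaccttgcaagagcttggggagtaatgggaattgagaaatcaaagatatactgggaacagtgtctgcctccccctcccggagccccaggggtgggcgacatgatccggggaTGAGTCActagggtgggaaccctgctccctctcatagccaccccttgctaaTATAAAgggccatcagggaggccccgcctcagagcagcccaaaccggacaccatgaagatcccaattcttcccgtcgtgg
Crabp1: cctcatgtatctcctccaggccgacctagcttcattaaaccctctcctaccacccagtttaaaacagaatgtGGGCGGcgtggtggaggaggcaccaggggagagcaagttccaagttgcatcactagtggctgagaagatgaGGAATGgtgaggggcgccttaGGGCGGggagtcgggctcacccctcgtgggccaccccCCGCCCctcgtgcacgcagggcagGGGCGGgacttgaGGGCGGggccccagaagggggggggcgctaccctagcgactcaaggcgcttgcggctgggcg

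The Krtdap window held a TATA box (TATAAA) 30 bases before the start and an AP-1 motif (TGANTCA) 81 bases before it. The Crabp1 window held 5 GC boxes (GGGCGG) and 1 TEAD motif (GGAATG) and no TATAAA. Motifs were searched on both strands, and none overlapped in these windows. Among 32851 promoters of this length, TATAAA occurred in 13.6%, TGANTCA in 7.81%, GGGCGG in 35.7% and GGAATG in 14.7%. A promoter was at hand for 614 of the genes higher in Pi16 Dpp4 and 549 of those higher in Col15a1 fibroblasts. TGANTCA was present in 6.03% and 8.93% of them and in 5.34% of 6140 promoters of genes tested, GGGCGG in 58.1%, 64.3% and 65.7%, and TATAAA in 9.28%, 11.1% and 7.54%. These are matches of letters and were not tested.

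The next groups of genes are lists drawn up by known roles but with earlier results of these data in view, so the counts of called members are partly set by the choice and are a description. A gene at low counts could pass the filter through the group where it was high, so the counts describe the tested members and not the whole lists. Each count stands beside the shares over all genes tested, 10.2% called higher in Pi16 Dpp4 and 9.3% in Col15a1 fibroblasts. Of 35 genes known from adventitial progenitor fibroblasts, 35 were tested, 32 were higher in Pi16 Dpp4 fibroblasts and 2 in Col15a1 fibroblasts, with a median log2 fold change of 1.96. Members of this list were chosen with knowledge of Pi16 and Dpp4 fibroblasts in other tissues. Igfbp5, which binds insulin-like growth factors, held 1938, 1753 and 1926 CPM against 166, 252 and 251 (log2 fold change 3.15, SE 0.17, adjusted p = 5.70e-10). Anxa3, a calcium-dependent phospholipid-binding protein, held 1598, 1206 and 1536 CPM against 108, 0 and 41.5 (log2 fold change 4.66, SE 0.28, adjusted p = 9.92e-10). Ly6c1, a GPI-anchored surface protein, held 2141, 1987 and 1654 CPM against 442, 439 and 294 (log2 fold change 2.34, SE 0.14, adjusted p = 1.13e-09). The CPM of these 3 genes did not overlap between the groups, which their choice by low p favours. The same held for 29.6% of all genes tested. Ly6c1 was not particular to these fibroblasts, with a mean of 1927 CPM there and 2343 in vascular endothelial cells. The 2 members higher in Col15a1 fibroblasts were Cd9 and Tppp3, named after their values were seen.

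Of 18 microfibril and elastic fibre genes, 16 were tested, 8 were higher in Pi16 Dpp4 and 1 (Emilin1, likewise named afterwards) in Col15a1 fibroblasts, with a median of 0.66. Eln (elastin) held 396, 563 and 816 CPM against 102, 219 and 118 (log2 fold change 2.19, SE 0.22, adjusted p = 5.21e-07). Fbn1 (fibrillin-1, the backbone of microfibrils) held 569, 695 and 763 CPM against 205, 176 and 252 (log2 fold change 1.63, SE 0.17, adjusted p = 7.31e-07). The groups were separate for both genes, which their choice by low p favours. Emilin2 and Mfap5, further proteins of these fibres, had log2 fold changes of 2.26 (SE 0.21) and 1.23 (SE 0.12).

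Signals for the Wnt, BMP and insulin-like growth factor pathways had called members in both directions. Of all genes tested, 10.2% were called higher in Pi16 Dpp4 and 9.3% in Col15a1 fibroblasts. Of 10 Wnt ligands and modulators tested (of 20), 5 were higher in Pi16 Dpp4 and 2 in Col15a1 fibroblasts (median 0.62). Sfrp4, a secreted Wnt antagonist, held 669, 649 and 419 CPM against 42.1, 87.8 and 71.3 (log2 fold change 3.15, SE 0.25, adjusted p = 3.84e-08). The ligand Wnt2 averaged 150 CPM against 50.1 (log2 fold change 1.70, SE 0.21), and the receptor Fzd1 averaged 12.5 CPM against 38.9 (-1.66, SE 0.27). Dkk2, another antagonist, had a log2 fold change of 1.94 (SE 0.44), which was 1.21 and no longer called without Young C and 3.35 without Young A. Of 17 tested genes for TGF-beta and BMP ligands, receptors and antagonists (of 23), 8 were higher in Pi16 Dpp4 and 4 in Col15a1 fibroblasts (median 0.66). The receptor Tgfbr2 (2.09, SE 0.20) and the BMP antagonists Chrdl1 (2.60, SE 0.26) and Nbl1 (1.54, SE 0.16) were higher in Pi16 Dpp4 fibroblasts, and Thbs1, a thrombospondin that activates latent TGF-beta, was higher in Col15a1 fibroblasts (-2.85, SE 0.25). Of 9 tested genes of the insulin-like growth factor list (of 10), 3 were higher in Pi16 Dpp4 and 2 in Col15a1 fibroblasts (median 0.02). Besides Igfbp5, the binding proteins Igfbp6 (1.61, SE 0.11) and Igfbp4 (0.77, SE 0.14) were higher in Pi16 Dpp4 fibroblasts. Igfbp7 ran the other way, with 553, 538 and 633 CPM against 3091, 3906 and 3460 (log2 fold change -2.58, SE 0.13, adjusted p = 2.97e-10).

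Complement genes and chemokines also had called members in both directions. Of 10 complement genes tested (of 15), 5 were higher in Pi16 Dpp4 and 1 in Col15a1 fibroblasts (median 0.76). The 1 of 10 lies near the 9.3% of all genes tested that were called higher in Col15a1 fibroblasts. C3, the central complement component, held 1366, 1759 and 1453 CPM against 198, 922 and 185 (log2 fold change 2.32, SE 0.27, adjusted p = 2.99e-06), so the Col15a1 group of Young B lay far above those of the other mice. Cd55, which protects cells from complement, had a log2 fold change of 3.18 (SE 0.25) and Serping1, the C1 inhibitor, of 0.86 (SE 0.16). Of 17 chemokines and cytokines, all tested, 2 were higher in Pi16 Dpp4 and 7 in Col15a1 fibroblasts (median -0.42). The 2 of 17 lie near the 10.2% of all genes tested that were called higher in Pi16 Dpp4 fibroblasts. The 2 were the B cell chemokine Cxcl13 and the alarmin Il33. Cxcl13 held 348, 447 and 70.0 CPM against 19.7, 32.9 and 7.45 (log2 fold change 3.85, SE 0.27, adjusted p = 9.74e-09), and was low in both groups of Young C. Il33 held 158, 137 and 190.5 CPM against 7.02, 65.8 and 3.19 (log2 fold change 4.31, SE 0.44, adjusted p = 7.94e-07). Cxcl12, which attracts leukocytes and progenitors through CXCR4, held 150, 127 and 119 CPM against 382, 724 and 445 (log2 fold change -1.85, SE 0.20, adjusted p = 1.36e-06).

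Of 26 basement membrane genes, 17 were tested, 10 were higher in Col15a1 and 4 in Pi16 Dpp4 fibroblasts (median -0.84). Col4a1 and Col4a2, the chains of the main type IV collagen network, lie head to head on chromosome 8 and overlap at their starts. Col4a1 held 460.5, 636 and 834 CPM in Col15a1 and 56.9, 102 and 81.9 in Pi16 Dpp4 fibroblasts (log2 fold change -3.05, SE 0.19, adjusted p = 1.37e-09). Col4a2 held 432, 428 and 641 CPM against 47.2, 46.1 and 45.6 (log2 fold change -3.46, SE 0.20, adjusted p = 9.11e-10). Both genes were separate between the groups, which their choice by low p favours, and averaged 288 and 299 CPM in vascular endothelial cells. Of 22 fibrillar and associated collagen genes, 21 were tested, 12 were higher in Col15a1 and 2 in Pi16 Dpp4 fibroblasts (median -0.69). Col3a1 held 5235, 3335 and 7075 CPM against 1843, 1831 and 1895 (log2 fold change -1.43, SE 0.15, adjusted p = 1.18e-06). Col1a1 (-0.96, SE 0.13), Col6a2 (-1.63, SE 0.16) and Col5a3 (-1.74, SE 0.20) were higher in Col15a1 fibroblasts as well. Col14a1, a collagen that coats fibril surfaces, ran the other way, with 445, 482 and 574 CPM in Pi16 Dpp4 and 98.3, 32.9 and 73.4 in Col15a1 fibroblasts (log2 fold change 2.71, SE 0.22, adjusted p = 4.01e-08). Small leucine-rich proteoglycans, which bind collagen fibrils, were split: of 9 tested (of 10), Ogn (2.18, SE 0.17), Aspn (2.38, SE 0.26) and 2 others were higher in Pi16 Dpp4 fibroblasts, and Bgn (-2.12, SE 0.17), Lum (-1.73, SE 0.15) and 1 other in Col15a1 fibroblasts (median -0.17).

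Of 25 preadipocyte and lipid genes, 20 were tested, 14 were higher in Col15a1 and 2 in Pi16 Dpp4 fibroblasts (median -1.22). Not all of the 14 went the same way in every mouse. In Young B the Pi16 Dpp4 fibroblasts were higher for Cd36 (65.2 against 32.9 CPM), Fabp5 (20.7 against 10.97) and Gpihbp1 (34.99 against 10.97). In Col15a1 fibroblasts Cd36, Fabp5 and Gpihbp1 were highest in Young A, at 288, 132 and 279 CPM. The part that cells of other types had in these values was not tested. Lpl, the lipase that frees fatty acids from lipoproteins, held 1245, 1744 and 2087 CPM in Col15a1 and 201, 254 and 286 in Pi16 Dpp4 fibroblasts (log2 fold change -2.75, SE 0.15, adjusted p = 4.37e-10). Apoe (apolipoprotein E, -1.79, SE 0.16) and Cebpb, a transcription factor of early adipogenesis (-1.01, SE 0.14), were also higher in Col15a1 fibroblasts. Apoe averaged 1673 CPM there and 26137 CPM in macrophages of the class that the study named Mb. Ebf2, a transcription factor of brown and beige preadipocytes, was higher in Pi16 Dpp4 fibroblasts (1.63, SE 0.22). The adipocyte markers Adipoq, Plin1, Cidec and Lep summed to 1.59 to 3.00 CPM in Pi16 Dpp4 and to 0 to 5.62 CPM in Col15a1 fibroblasts.

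Of 18 tested genes for matrix proteases and their inhibitors (of 22), 7 were higher in Pi16 Dpp4 and 4 in Col15a1 fibroblasts (median -0.05). The shares over all genes tested were 10.2% and 9.3%. Among the inhibitors of metalloproteinases Timp2 was higher in Pi16 Dpp4 fibroblasts, with 3007, 3541 and 3766 CPM against 741, 1042 and 1105 (log2 fold change 1.87, SE 0.13, adjusted p = 5.88e-09). Timp1 was higher in Col15a1 fibroblasts, with 211, 165 and 339 CPM against 29.2, 38.2 and 68.0 (log2 fold change -2.46, SE 0.20, adjusted p = 5.82e-08). The 2 inhibitors, chosen by low p, thus stood in opposite order in every mouse. The protease Mmp3 (stromelysin, -2.34, SE 0.19) was higher in Col15a1 fibroblasts. Of 8 tested growth factors for epithelium (of 17), 2 were higher in each group (median -0.20). Fgf2 (3.12, SE 0.29) and Fgf7 (1.10, SE 0.30) were higher in Pi16 Dpp4 fibroblasts, although Fgf7 was not called without Young A (1.18) or Young C (1.22). Mdk, the heparin-binding growth factor midkine, held 187, 54.9 and 244 CPM in Col15a1 and 15.0, 15.9 and 30.04 in Pi16 Dpp4 fibroblasts (log2 fold change -3.10, SE 0.24, adjusted p = 2.73e-08). Fgf10, the branching factor for epithelium, held 44.9, 21.9 and 78.8 CPM against 9.74, 9.54 and 3.63 (log2 fold change -3.26, SE 0.40, adjusted p = 5.27e-06), and -1.95 without Young C.

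**Figure D4:**
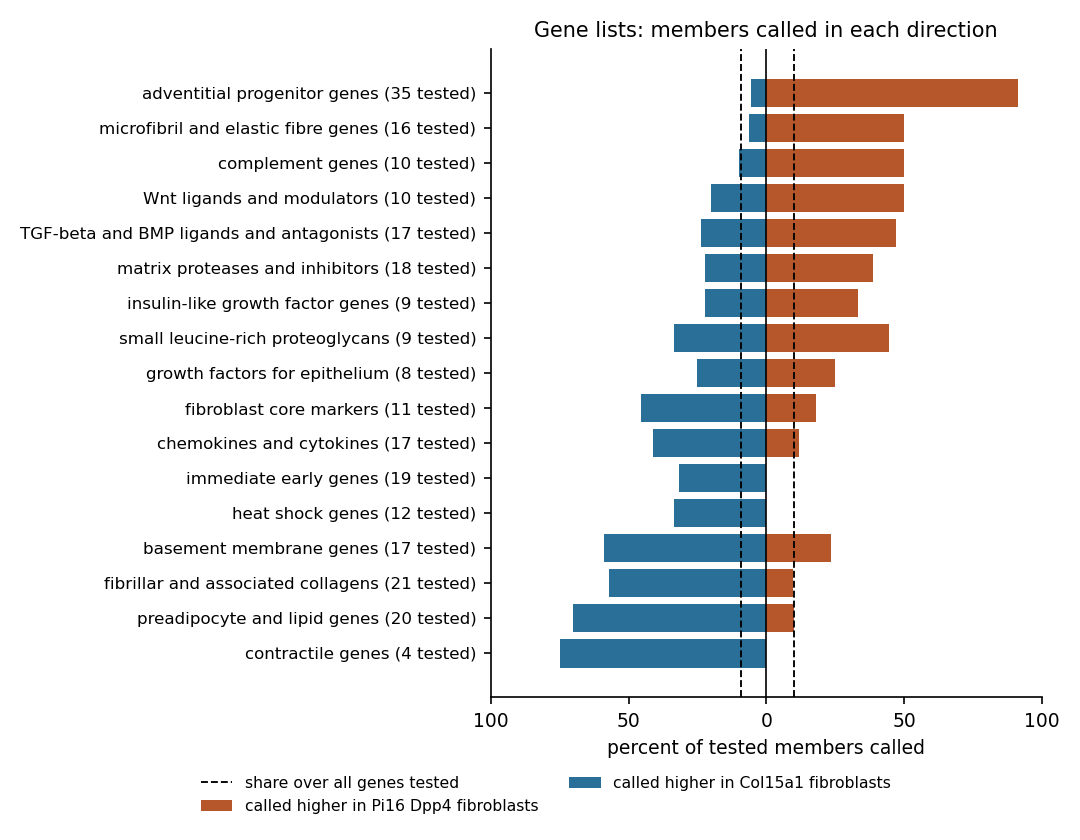
Percent of the tested members of each gene list (x axis) that were called higher in Pi16 Dpp4 fibroblasts (orange, right) or in Col15a1 fibroblasts (blue, left), and the share over all genes tested (dashed lines, 10.2% and 9.3%). Of the 35 adventitial progenitor genes, 32 are on the right and 2 on the left, and of the 20 preadipocyte and lipid genes tested, 14 are on the left and 2 on the right.

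Among genes known to respond to tissue dissociation, all called members were higher in Col15a1 fibroblasts, but most members were not called. Of 19 tested immediate early genes (of 20), 0 were higher in Pi16 Dpp4 and 6 in Col15a1 fibroblasts (median -0.47), and of 12 heat shock genes, all tested, 0 and 4 (median -0.32). Junb held 5528, 3642 and 2958 CPM in Col15a1 and 2728, 2195 and 1755 in Pi16 Dpp4 fibroblasts (log2 fold change -0.83, SE 0.11, adjusted p = 1.84e-05). Btg2 (-1.04, SE 0.18), Ier2 (-0.91, SE 0.16) and Egr2 (-2.50, SE 0.27) went the same way, and these 4 were the members of lowest p. Among members not called, Fos (-0.01) and Egr1 (-0.06) were nearly level. Dusp1 (0.24), Klf4 (0.20) and Socs3 (0.31) leaned to Pi16 Dpp4 fibroblasts, and Fosb (-0.24) and Ier3 (-0.47) to Col15a1 fibroblasts. Hspa1a and Hspa1b, near-identical neighbours between which reads cannot be divided surely, had log2 fold changes of -1.65 (SE 0.18) and -1.51 (SE 0.24). Of the 12 mitochondrially encoded genes tested, 10 were higher in Col15a1 fibroblasts (median -0.72), against 9.3% of all genes tested. Of 78 ribosomal protein genes 4 were higher in Pi16 Dpp4 fibroblasts (median 0.40), a smaller share than the 10.2% of all genes tested. Dnajb1 (-0.74, SE 0.18) was not called without Young B (-0.51), nor Dnaja1 (-0.59, SE 0.18) without Young C (-0.35). Contractile genes were scarce: of 10, only 4 passed the filter, of which Acta2 (-1.74, SE 0.32), Tpm2 (-3.38, SE 0.27) and Tpm1 (-0.75, SE 0.21) were higher in Col15a1 fibroblasts, and Tpm1 was not called without Young A (-0.60) or Young C (-0.64). Acta2 averaged 12.1 CPM in Pi16 Dpp4 and 33.4 in Col15a1 fibroblasts, where myoepithelial cells averaged 7225 and pericytes 1110 CPM.

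Genes that define fibroblasts were present in both groups. Pdgfra, a receptor used to mark fibroblasts, held 142, 154 and 143 CPM in Pi16 Dpp4 and 213, 154 and 143 in Col15a1 fibroblasts, and the difference did not pass (log2 fold change -0.22, SE 0.19, adjusted p = 0.471). Pdgfrb, the sister receptor, held 56.9, 135 and 98.4 CPM against 189.5, 252 and 212 (log2 fold change -1.27, SE 0.19, adjusted p = 6.87e-05). Col1a2 averaged 1844 CPM against 3001 (log2 fold change -0.69, SE 0.13), and -0.57 and not called at 1.5-fold without Young A. Fn1 (fibronectin) averaged 1590 CPM against 939 (0.78, SE 0.20), and was not called without Young B (0.41) or with DESeq2 (0.86). Of 11 tested core markers (of 14), 2 were higher in Pi16 Dpp4 and 5 in Col15a1 fibroblasts (median -0.22). Thy1 (CD90) differed most by p, with 387, 252 and 243 CPM in Col15a1 and 69.7, 55.7 and 57.4 in Pi16 Dpp4 fibroblasts (log2 fold change -2.24, SE 0.19, adjusted p = 6.52e-08). Prrx1, a transcription factor of limb and skin mesenchyme, was higher in Pi16 Dpp4 fibroblasts (1.43, SE 0.19). Fap (-0.70, SE 0.23) was not called without Young B (-0.67) or Young C (-0.43), nor Vim (-0.64, SE 0.15) without Young C (-0.38). Myl9 did not pass (-0.19, SE 0.20, adjusted p = 0.572), and Mylk and Myh11 were below the filter, with 15 and 2 UMIs in Pi16 Dpp4 and 15 and 7 in Col15a1 fibroblasts.

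Markers of other cell types were low in both groups. The 4 pericyte markers Rgs5, Des, Notch3 and Cspg4 were too low to be tested and summed to 3.18 to 4.95 CPM in Pi16 Dpp4 and 10.97 to 30.9 CPM in Col15a1 fibroblasts, 0.303% and 1.41% of their sum in pericytes. The 4 endothelial markers summed to 50.2 to 108 and 54.9 to 198 CPM, 4.01% and 4.80% of their sum in vascular endothelial cells. Pecam1 (-1.27, SE 0.42) and Cdh5 (-1.45, SE 0.35) were called higher in Col15a1 fibroblasts, at adjusted p of 0.0400 and 0.00553 (edgeR) with overlapping CPM. Without Young A neither was called (-0.60 and -2.11), and Kdr, not called in the full fit (0.87), was called higher in Pi16 Dpp4 fibroblasts (3.09). The 5 epithelial markers summed to 103 to 387 and 132 to 507 CPM, of which Krt14 was called higher in Col15a1 fibroblasts (-1.80, SE 0.52), while Krt8, Krt18 and Epcam did not pass and changed sign between settings. The 4 immune markers summed to 74.8 to 213 and 32.9 to 220 CPM. Lyz2 was called higher in Pi16 Dpp4 fibroblasts (0.88, SE 0.30), though not without Young A (1.08) or Young C (0.50). S100b, of the Schwann cell list, was called higher in Col15a1 fibroblasts (-1.24, SE 0.35), though not without Young B (-1.23) or Young C (-0.27). The mesothelial markers Msln, Upk3b, Lrrn4 and Wt1 were at 0 in both groups, and the tendon markers Tnmd and Scx summed to at most 0.749 CPM. The part that cells of other types had in the differences was not tested.

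The cells at the border of the rule were described with 8 genes chosen after their values were seen. Smpd3 averaged 917 CPM in the 1019 Pi16 Dpp4 fibroblasts with 2 or more UMIs of Pi16 and Dpp4, 118 CPM in the 46 with 1 UMI, 11.8 CPM in the 182 fibroblasts with none of the 3 genes, 20.0 CPM in the 131 Col15a1 fibroblasts with 1 UMI and 11.3 CPM in the 237 with 2 or more. Igfbp7 averaged 463, 2859, 3461, 3361 and 3591 CPM along the same order. The cells with 1 UMI of Pi16 or Dpp4 lay near the Col15a1 fibroblasts for Igfbp7 and between the groups for Smpd3, with 112, 215 and 28.1 CPM in Young A, B and C. The cells with none lay near the Col15a1 fibroblasts for both genes. Lpl took intermediate values, with 218, 864, 957, 1477 and 1777 CPM, and so did Col4a1, with 69.5, 307, 418, 507 and 751 CPM. Anxa3 averaged 1506, 205, 70.3, 78.8 and 35.7 CPM and Cxcl14 20.2, 96.4, 496, 506 and 660 CPM. With the rule set at 2 or more UMIs, 566 genes were called higher in Pi16 Dpp4 and 490 in Col15a1 fibroblasts.

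**Figure D5:**
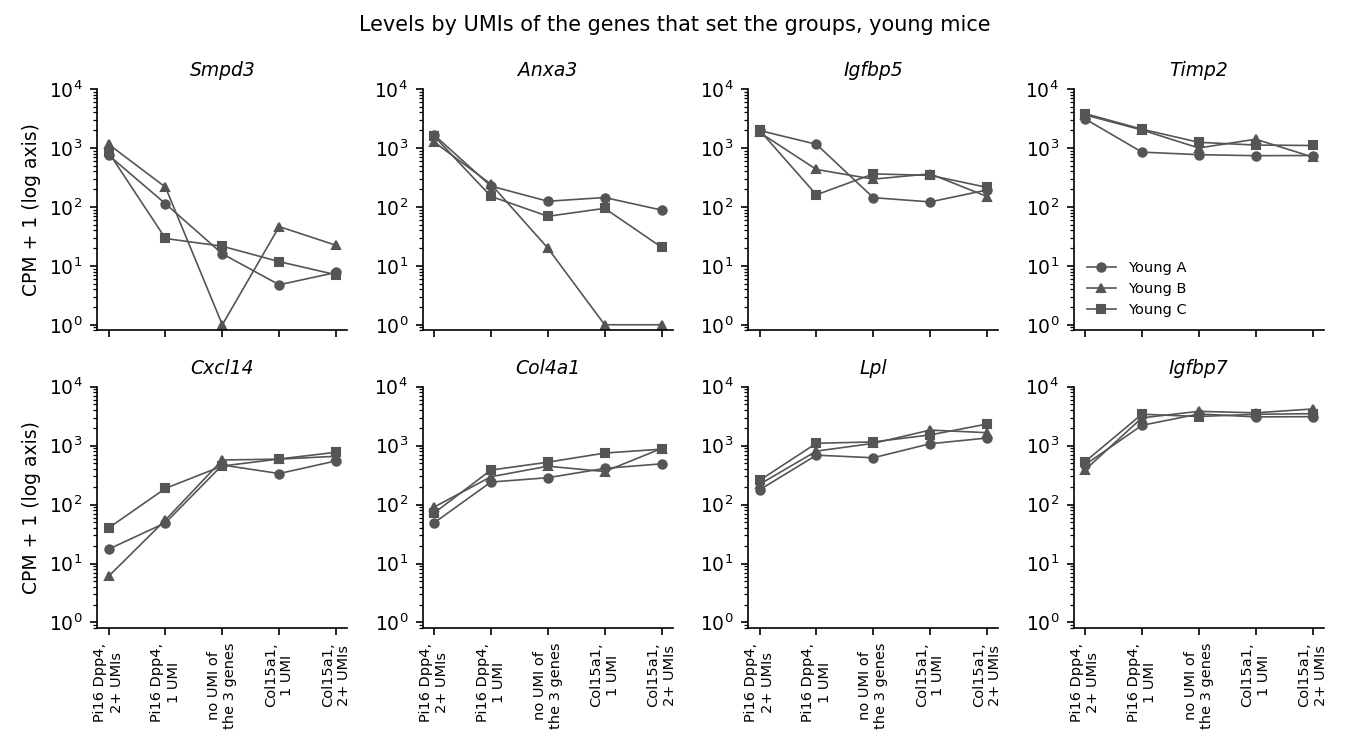
CPM + 1 (y axes, log scale) of 8 genes in young fibroblasts ordered by UMIs of the genes that set the groups (x axis), 1 line per mouse. Igfbp7 averages 463 CPM in cells with 2 or more UMIs of Pi16 and Dpp4 and 2859 to 3591 CPM in the other 4 classes.

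Fibroblasts with UMIs of both kinds and those with none of the 3 genes both took levels between the groups for many of the called genes. These genes were called for a gap between the groups in the same mice, so the shares below are partly set by that choice. They are a description, and the share over all genes tested was not computed. For cells with both kinds, the level in Young C (102 cells) was strictly between those of the groups for 538 of the 633 genes (85.0%) called higher in Pi16 Dpp4 and 434 of the 579 (75.0%) called higher in Col15a1 fibroblasts. In Young A (73 cells) the shares were 67.9% and 61.5%, and in Young B (9 cells) 39.7% and 35.4%. For cells with none of the genes, the shares were 62.2% and 68.9% in Young C, 53.7% and 61.0% in Young A and 40.9% and 42.5% in Young B. For the genes higher in Pi16 Dpp4 fibroblasts, the cells with both kinds had a median log2 difference (10 CPM added) of 0.28, 0.67 and 0.54 from the Col15a1 group and of -0.80, -0.62 and -0.57 from the Pi16 Dpp4 group in Young A, B and C. The cells with none of the 3 genes were closer to the Col15a1 group by this measure. Their median log2 difference from the Col15a1 group was 0.10, 0.00 and 0.14 in Young A, B and C, and from the Pi16 Dpp4 group -0.99, -1.18 and -0.94. For the genes higher in Col15a1 fibroblasts these medians were -0.14, -0.14 and -0.22 from the Col15a1 group and 0.87, 0.76 and 0.75 from the Pi16 Dpp4 group.

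Within the Pi16 Dpp4 fibroblasts, 137, 49 and 254 cells of Young A, B and C had UMIs of Pi16 alone and 7, 3 and 11 of Dpp4 alone, while 149, 78 and 377 had both. The sums of the Dpp4 only cells held 12433 to 52282 UMIs, so this comparison was coarse. Of 1762 genes tested, 32 (1.82%) were called higher in Pi16 only and 30 (1.7%) in Dpp4 only fibroblasts, 3.52% in all. Anxa3 held 1591, 985 and 1395 CPM in Pi16 only and 247, 241 and 76.5 in Dpp4 only cells (log2 fold change of Pi16 only over Dpp4 only 3.06, SE 0.43, adjusted p = 1.90e-09). Smpd3 (2.86, SE 0.48), Myoc (4.20, SE 0.74) and Krtdap (3.48, SE 1.05) were also called higher in Pi16 only cells, the last from 1 UMI in the Dpp4 only cells. Il33 had 310 UMIs in Pi16 only and 0 in Dpp4 only cells. Cd9 (-2.20, SE 0.36), Col18a1 (-3.23, SE 0.60), Thy1 (-2.15, SE 0.49) and Samd4 (-2.95, SE 0.61) were called higher in Dpp4 only cells. In the Col15a1 fibroblasts these 4 genes averaged 647, 205, 294 and 57.3 CPM, against 268, 18.05, 66.6 and 17.3 CPM in the Pi16 only cells, a group that forms part of both comparisons. Several calls were lost without 1 mouse: Krtdap without Young A (8.28), B (3.43) or C (2.67), Il33 without Young A (8.79) or C (7.93), Cd9 without Young A (-1.39), and Col18a1 (-2.46), Thy1 (-1.17) and Samd4 (-2.29) without Young C. Without Young C Myoc had 0 UMIs in Dpp4 only cells and a fitted value of 9.22. Without Young A 12 and 19 genes were called, and without Young C 23 and 15.

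Aged A (57 Pi16 Dpp4 and 14 Col15a1 fibroblasts) and Aged B (9 and 10) had at least 5 cells in both groups and are described without a test. Of the 633 genes called higher in Pi16 Dpp4 fibroblasts of young mice, 547 (86.4%) were higher in that group in Aged A, against 70.6% of the 3201 tested genes with a log2 fold change above 0 in young mice. In Aged B 409 (64.6%) were, against 53.4%, while 137 went the other way and 87 had a difference of 0. Of the 579 genes called higher in Col15a1 fibroblasts, 353 (61.0%) went the same way in Aged A, against 49.2% of the 3022 tested genes below 0, and 326 (56.3%) in Aged B, against 43.6%. In Aged B 197 of the 579 went the other way and 56 had a difference of 0. Genes at 0 stay in all these totals, with 448 of the 3201 and 340 of the 3022 genes in Aged B. The 3201 and 3022 genes include the called genes. The median log2 difference over all genes tested was 0.24 in Aged A and 0 in Aged B, with 10 CPM added. Krtdap held 94.5 and 25.2 CPM in the Pi16 Dpp4 fibroblasts of Aged A and B and 0 in the Col15a1 fibroblasts of both. The sums held 306973 and 39607 UMIs in the Pi16 Dpp4 and 62928 and 45073 UMIs in the Col15a1 groups. The 25.2 CPM of Aged B thus rests on very few UMIs, and 0 in the Col15a1 groups says little.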

How the data were processed

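Single-cell RNA sequencing of 3′ ends was done in 3 young and 4 aged mice, 1 library per mouse. The authors mapped reads to mm10 and counted UMIs with Cell Ranger 2.0, kept cells within limits on UMIs, genes and mitochondrial share, and named cell types from their clusters. The deposited table holds raw counts (UMIs) per gene and cell, with no normalization, and the deposited cell type names were used as given. The deposited cell table also gives a mitochondrial fraction and cell-cycle scores, which the authors computed with Seurat, and the scores were not used here. The members and gene lists were chosen with earlier results of these data known.

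UMIs were summed per mouse and group (91147 to 3029227 per sum in young mice). Genes passing filterByExpr were fitted with edgeR 4.0.16 (R 4.3.3, TMM factors 0.946 to 1.08, quasi-likelihood test, mouse as a block). Calls needed a Benjamini-Hochberg adjusted p under 0.05 and at least 1.5-fold. Both groups of a mouse come from the same animal, which pairs the sums (correlations of same-mouse deviations 0.322, 0.104 and 0.183). Between sums of different mice the correlations ran from -0.242 to 0.0490. Deviations from a mean of 3 sums add to 0, which lowers the latter, so these values show little about the pairing. Named genes were, per direction, 12 called genes ranked by fold change that went the same way in 3 mice and averaged at least 50 CPM, the 4 genes of lowest p in each list, and fibroblast genes that the study discusses. In the Pi16 only and Dpp4 only comparison they were the 5 called genes of largest fold change per direction. Of the genes so chosen, 2 are not reported here. Log2 differences within a mouse had 10 CPM added. Shares of young and aged mice were compared by an exact permutation test. Doublets were called with Scrublet in scanpy 1.11.5 (expected rate 0.06) and kept. Wilson and counting intervals cover counting error only. DESeq2 1.42.0, other filters, other rules, thinning and leaving out each mouse were tried as alternatives. On simulated data with 200 changed genes among 6218, the main fit recovered 32% of 2-fold and 87% of 4-fold changes with 2 false calls. For Pi16 only against Dpp4 only, with 200 changed among 1770, it recovered 33% and 84% with 4 false calls. The simulated counts had the same dispersion for every gene and no differences between mice, so they do not give the number of false calls in the data.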

Additional observations from a re-analysis of the deposited data

Results flagged for a closer look

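In 3 of the genes named above, every young mouse had the higher level in Col15a1 fibroblasts and both aged mice with at least 5 cells per group had the higher level in Pi16 Dpp4 fibroblasts. The difference between young and aged mice was not tested. The log2 difference of Fzd1, a Wnt receptor, was -1.51, -0.36 and -1.08 in Young A, B and C and 1.20 and 0.66 in Aged A and B, a mean of 0.93 in the aged mice. The values of Vim (vimentin) were -0.43, -0.40 and -1.06 against 0.01 and 0.60, a mean of 0.31. S100b, of the Schwann cell list, had -0.01, -0.97 and -1.37 against 0.48 and 1.82, a mean of 1.15. The aged values rest on 57 and 14 cells in Aged A and 9 and 10 cells in Aged B. They rest on few UMIs for Fzd1 (4 in Pi16 Dpp4 against 0 in Col15a1 fibroblasts of Aged A, 3 against 2 in Aged B) and S100b (8 against 1, and 1 against 0), and on more for Vim (443 against 90, and 87 against 65). Of the 499 genes called higher in Col15a1 fibroblasts and higher there in all 3 young mice, 64 (12.8%) were on the other side in both aged mice, and of the 611 such genes of the Pi16 Dpp4 fibroblasts 26 (4.26%).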

How the results depend on the processing

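The main counts were 633 genes higher in Pi16 Dpp4 and 579 higher in Col15a1 fibroblasts. With DESeq2 they were 375 and 332, and with each cell thinned to 2000 UMIs 330 and 305. Without the replicate block they were 435 and 361, and with a 2-fold minimum 451 and 343. Leaving out 1 mouse gave 438 to 676 and 353 to 733, the lowest without Young C. The 32 genes higher in Pi16 only and 30 in Dpp4 only fibroblasts became 9 and 10 with DESeq2, 8 and 7 without the replicate block, 11 and 6 after thinning, and 12 to 26 and 15 to 28 when 1 mouse was left out, and 45 and 7 with no filter on low counts, where the median log2 fold change of all genes tested was 1.10. The share of Pi16 Dpp4 fibroblasts differed by 17.4 percentage points between young and aged mice, by 23.0 after thinning and by 10.2 to 22.7 without 1 mouse. That of Col15a1 fibroblasts differed by 0.609, and from -3.14 (without Young A) to 4.14 without 1 mouse, with -1.67 without Aged A. Genes that changed sign did not pass in any of these fits: Pdgfra (0.011 after thinning), Epcam (-0.060 without the block, -0.15 to 0.70 without 1 mouse, -0.14 without doublets), Krt8 (-0.17 without the block, -0.33 to 0.70 without 1 mouse, -0.26 after thinning, -0.18 without doublets, -0.20 with Dpp4 alone), Krt18 (-0.19 without the block, -0.32 to 0.37 without 1 mouse, -0.28 without doublets, -0.17 with Dpp4 alone) and Cd74 (-0.26 after thinning, -0.070 with 2 or more UMIs). Over the named genes of Pi16 Dpp4 against Col15a1 and the alternatives, 1325 values kept direction and call, 65 lost the call, 1 gained it and 15 changed sign. For the named genes of Pi16 only against Dpp4 only, 75 values kept both and 21 lost the call. The block stood in the main fit. Without it 12 named genes of the first comparison and 2 of the second lost the call. The causes were not tested.

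The Col15a1 group of Young B held 22 cells and the Dpp4 only groups 3 to 11, which limits what low genes can show.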
